A study of Rattus norvegicus with 10 samples.

Results

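The genes described here encode the proteins of the cytosolic ribosome, measured as mRNA in the milk fat layer of lactating rat dams. Members were chosen by symbol alone: Rpl or Rps with a number and at most one letter a, x or y, together with Rplp0, Rplp1, Rplp2 and Rpsa, provided that the row varied between libraries. The rule found 61 genes, all of them varying, of 16748 genes in the table and 12992 that varied. The large subunit was represented by 36 members and the small subunit by 25. Rplp2 and several other ribosomal proteins were not analysed here.

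Wild type Sprague-Dawley females were kept in pairs from before breeding, either in enriched environment (EE) housing, a large cage of several levels with ramps, toys and tubes, or in standard (SD) laboratory cages. Shortly before birth SD dams were moved to single cages and EE dams were parted by a divider within theirs. Litters were standardized and part of each was exchanged with the other housing group, so dams of both groups nursed some foster pups. Milk was drawn on postnatal day (P) 10 after a period apart from the pups, under light isoflurane and with oxytocin, in SD and EE dams alike. Total RNA of the fat layer gave 5 SD and 5 EE libraries. The study asked how housing changes the milk transcriptome. The labels call the 5 libraries of a group biological replicates without linking them to dams or cages, so every p-value here is set against the spread from library to library, which may be partly technical. The fat layer carries cytoplasm of the secretory cell enclosed in fat globules as well as shed cells, and in such a bulk sample fewer cells of one type and less RNA per cell cannot be told apart.

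A ribosome decodes mRNA on its small subunit and joins amino acids on its large subunit, and each of its proteins is needed in about the same amount, because nearly all are held in fixed places on the ribosomal RNA. In mammals their mRNAs share a 5′ terminal oligopyrimidine (TOP) tract, a C followed by a run of C and T at the very start, through which mTORC1 and LARP1 control their translation and storage. The secretory mammary cell makes milk protein in bulk and depends on this machinery.

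To show how far members carry this tract, 30 bases around the start of transcription annotated by RefSeq are given for some of the genes described below. Each runs 5′ to 3′ on the strand of the gene, the annotated start is base 16, and capitals mark the longest run of C and T in the window.
Rps3a: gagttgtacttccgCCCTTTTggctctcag
Rplp0: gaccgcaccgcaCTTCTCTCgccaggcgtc
Rpl5: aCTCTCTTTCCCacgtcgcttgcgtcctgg
Rpl17: tagccttcgcgCTTCCTCTTCCTgttagcg
Rpl35: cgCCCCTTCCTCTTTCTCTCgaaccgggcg
Rpl18: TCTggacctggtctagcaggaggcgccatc
The windows lie in build GRCr8 at chr2:173827028-173827057 on the minus strand for Rps3a, at chr12:46718376-46718405 on the minus strand for Rplp0 and at chr14:1995211-1995240 on the minus strand for Rpl5. Those of the other genes shown are chr18:70856261-70856290 on the plus strand for Rpl17, chr3:43165907-43165936 on the minus strand for Rpl35 and chr1:105325255-105325284 on the plus strand for Rpl18. In Rpl17 and Rpl35 a long pyrimidine run spans the annotated start, in Rps3a and Rplp0 a shorter run does, in Rpl5 the run ends before it, and in Rpl18 the window holds no run longer than 3 bases.

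RefSeq gave a promoter for 48 of the 61 members, and only the first listed was kept for each. The background counts every promoter listed, so a gene with several starts could enter it more than once. Within 50 bases centred on the start, 75.0% of these 48 held a run of at least 8 pyrimidines, against 19.4% of all 33469 promoters in the table. The letters CTTTC, which can lie inside such a run, were found on the strand of the gene in 50.0% of the members and 6.39% of all promoters, and on the other strand in 2.08% and 6.45%. The letters CTTCCG, the core read by ETS factors, were found on either strand within the whole 300 bases in 60.4% of the members and 16.6% of all promoters. These are matches of letters and describe sequence only.

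All libraries held deep data for these genes. Estimated depth ran from 43284497 to 70195989 reads per library, and members had from 2782 normalized counts (Rpl22, EE replicate 2) to 54594 (Rpl4, SD replicate 4). Normalized counts were computed back from the deposited log2 values. All 8 markers of the secretory mammary epithelium were present. One library, SD replicate 4, stood apart in the members. The authors' means match those of the 9 other libraries (SD of the log2 ratio 0.022, against 0.081 for all 10 libraries), so values with and without SD replicate 4 are given throughout.

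Over all 10 libraries, ribosomal protein mRNAs had slightly lower means in EE than in SD milk. A lower EE mean was found in 60 of 61 members, against 52.0% of all genes, and the median difference was -0.23 (log2, EE minus SD), against -0.0087 over all genes tested. At an unadjusted p under 0.05 by limma, 8 members were lower in EE, which is 13.1% of the members beside 4.05% of all genes, and 0 were higher, beside 3.35%. These 8 were Rps3a, Rpl36a, Rplp0, Rplp1, Rpl5, Rps16, Rpl23 and Rpl17. With a fold change over 1.3 required as well, 1 member remained lower (Rpl17), beside 2.56% of all genes, and 0 were higher, beside 1.02%. No gene of the 12992 passed the adjusted threshold of 0.05 (limma, Benjamini-Hochberg), with 526 lower and 435 higher at the unadjusted p. The paper, using DESeq2, does report genes under an adjusted p of 0.05. That count-based test was not repeated here, since the deposited values are log2. No member had all EE libraries below all SD libraries, beside 0.485% of all genes, and none had all EE libraries above, beside 0.754%. The count of 8 rested on single libraries, being 31 without SD replicate 2 (beside 4.45% of all genes lower in that fit), 4 without SD replicate 5 (3.45%), EE replicate 1 (3.69%) or EE replicate 4 (5.11%), 3 without SD replicate 4 (5.24%), and 2 without SD replicate 1 (3.33%), EE replicate 2 (3.83%) or EE replicate 3 (2.58%). It also rested on the scaling, being 1 with quantile normalization (3.02%) and 0 with libraries scaled to their totals without caseins (1.70%).

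Without SD replicate 4 the difference was smaller. A lower EE mean was then found in 55 of 61 members, against 50.3% of all genes, and a higher one in 6, against 49.7%, with a median of -0.10 against -0.0016. Only Rps3a, Rpl36a and Rplp0 were lower at an unadjusted p under 0.05, which is 4.92% of the members beside 5.24% of all genes, and 0 were higher, beside 5.15%. With a fold change over 1.3 as well, 0 members were lower, beside 3.06% of all genes, and 0 higher, beside 1.52%. The share of members called was thus near the share of all genes. All 5 EE libraries lay below the 4 SD libraries in 0 members, beside 1.55% of all genes, and above them in 0, beside 2.12%. In the lower direction 4 of the 5 did so in 5 members (Rpl31, Rpl5, Rplp0, Rplp1 and Rps3a). The share of all genes with 4 of 5 below was not counted, so this count cannot be set against it. The 1 gene past the adjusted threshold over these 9 libraries, 0.00772% of those tested, was not a member.

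**Figure D1:**
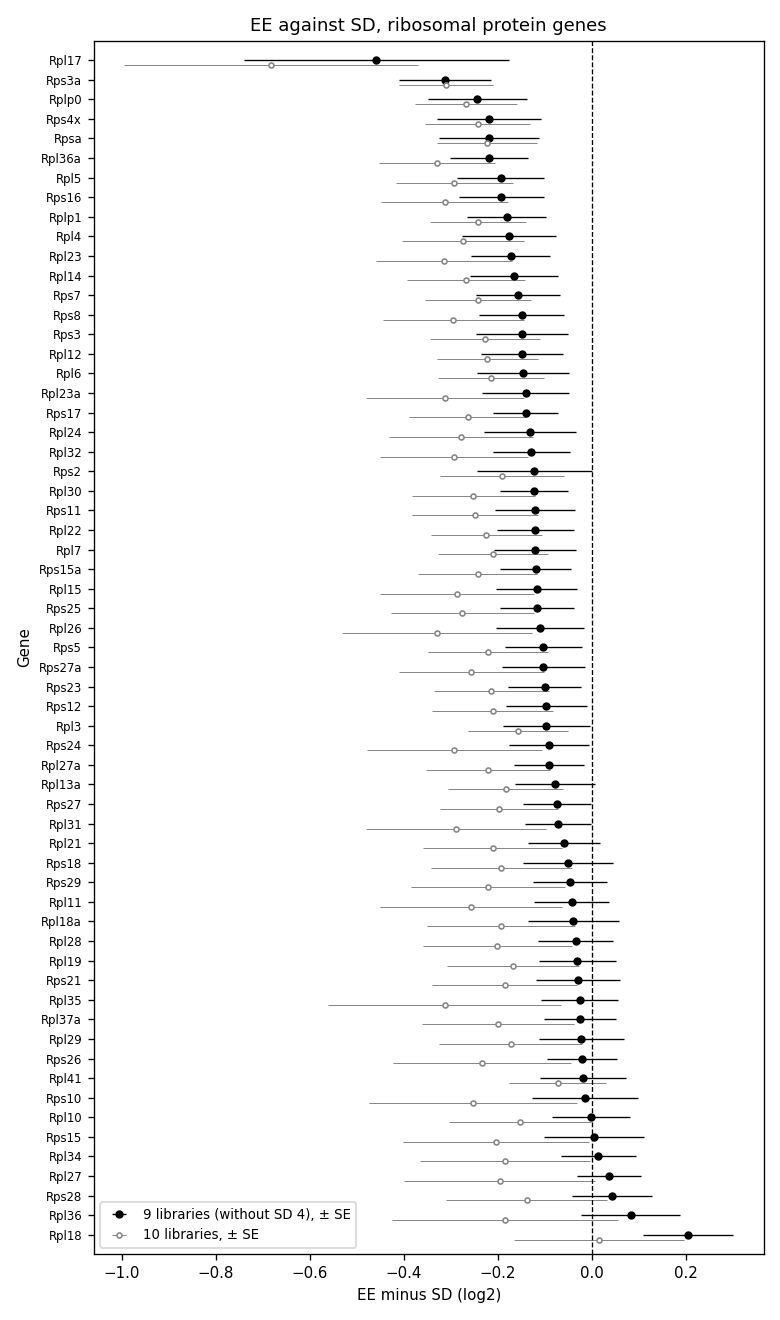
Difference between EE and SD (log2, horizontal axis) for each of the 61 genes (vertical axis, ordered by the value over 9 libraries), with filled points for 9 libraries without SD replicate 4, open points for all 10, and bars for the SE from limma. Points lie left of 0 in 55 genes over 9 libraries and in 60 over 10, and Rpl17 has the widest bars.

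Among proteins of the small subunit, Rps3a gave the smallest p of all members. Rps3a is a protein of the solvent side of the small subunit body, near the binding site of initiation factor eIF3. Normalized counts were 33835, 27534, 32348, 32352 and 37118 in SD replicates 1 to 5 and 27310, 25739, 25867, 24490 and 27622 in EE replicates 1 to 5. The groups overlapped only through SD replicate 2, which lay just below the highest EE library. EE was lower by 19.4% (log2 -0.31, SE 0.10, limma unadjusted p = 0.0089, adjusted p = 0.561; two-sided exact permutation test, p = 0.0159). Without SD replicate 4 the difference was the same, -0.31, with p = 0.0091 and an exact permutation p of 0.0159, since that library held an ordinary level of Rps3a. The smallest p that either exact test can give is 0.0079. Rps3a stayed under an unadjusted limma p of 0.05 without any single library, but not with quantile normalization (log2 -0.21) or with totals without caseins (-0.18).

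Rpsa, also known as the laminin receptor, and Rps4x, a protein of the small subunit body, gave differences of a similar size and, like Rps3a, changed little when SD replicate 4 was left out. Rpsa had 38706, 27362, 33426, 32964 and 31614 normalized counts in SD and 25973, 27813, 29946, 27361 and 28742 in EE, and the difference was -0.22 (log2) with and without that library. Its groups overlapped through SD replicate 2. Rps4x had 31989, 26206, 31419, 34242 and 37323 in SD and 28888, 26753, 26019, 24374 and 29512 in EE. Its difference was -0.24 (two-sided exact permutation p = 0.0476) and -0.22 without SD replicate 4 (exact p = 0.0873), and SD replicate 2 again lay within the EE range. Rpsa and Rps4x were picked out after their values were seen.

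The remaining small subunit proteins followed the same order with smaller values. All 12 measured proteins of the head, the part that swivels as mRNA and tRNA move, had lower EE means over 10 libraries (median -0.22), and 10 of 12 did without SD replicate 4 (median -0.10). One of them, Rps16, whose tail reaches toward the tRNA in the P site, was lower at an unadjusted p under 0.05 over 10 libraries (log2 -0.31, exact permutation p = 0.0397) and not over 9 (-0.19, exact p = 0.0635). All 13 measured proteins of the body had lower EE means in both sets, with medians of -0.24 and -0.12, and Rps3a was the only one under the threshold. Head and body differences over 9 libraries ran from -0.31 (Rps3a) to 0.044 (Rps28).

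In the large subunit, the P stalk recruits the elongation factors that drive the ribosome. Rplp0, which forms its base, had 44138, 33142, 38803, 42018 and 39320 normalized counts in SD and 32799, 32108, 30142, 31373 and 37179 in EE. All EE libraries but replicate 5 lay below every SD library. The difference was -0.27 (log2, SE 0.11, limma p = 0.0289, adjusted p = 0.653, exact permutation p = 0.0159) and -0.24 without SD replicate 4 (p = 0.0414, exact permutation p = 0.0476). Rplp1, which forms pairs bound to that base, had 32773, 29091, 29666, 38079 and 31964 in SD and 27990, 25411, 25443, 28039 and 29291 in EE. Again a single EE library, replicate 5, reached into the SD range. Its difference was -0.24 (SE 0.10, limma p = 0.035, adjusted p = 0.657, exact permutation p = 0.0159) and -0.18 without SD replicate 4 (p = 0.055, exact permutation p = 0.0238).

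Rpl5 and Rpl11 bind the 5S ribosomal RNA and, when ribosome assembly fails, hold Mdm2 away from p53. Rpl5 had 26636, 21537, 24663, 34974 and 26772 normalized counts in SD and 21278, 21038, 21472, 20398 and 24399 in EE, so that 4 of 5 EE libraries lay below the SD range. Rpl11 had 14072, 11824, 13427, 28088 and 14092 in SD and 12767, 11856, 13711, 13072 and 13312 in EE. The 2 partners had similar housing differences over all libraries and less similar ones without SD replicate 4. Rpl5 gave -0.29 (log2, exact permutation p = 0.0159) and -0.19 without SD replicate 4 (exact p = 0.0556), whereas Rpl11 gave -0.26 (exact p = 0.262) and -0.043 (exact p = 0.492), its SD and EE ranges overlapping fully once SD replicate 4 was left out. Without SD replicate 4 the SE was 0.093 for Rpl5 and 0.080 for Rpl11. Whether the partners differed from each other was not tested. Of the 4 measured genes around Mdm2 and p53, 0 passed an unadjusted p of 0.05 in either direction, and the smallest p was that of Mdm4, the relative of Mdm2 (log2 -0.16, limma adjusted p = 0.865).

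Rpl36a, a protein near the exit site for tRNA, had 4694, 3721, 4254, 6429 and 4741 normalized counts in SD and 3535, 3780, 3735, 3610 and 3914 in EE. EE libraries were close to each other and SD replicate 2 lay among them. The difference was -0.33 (log2, SE 0.12, limma p = 0.0201, adjusted p = 0.631, exact permutation p = 0.0317) and -0.22 without SD replicate 4 (p = 0.0236, exact permutation p = 0.0397). Rpl23, where eIF6 docks on the free large subunit, gave -0.32 (exact permutation p = 0.0397) and -0.17 without SD replicate 4 (exact p = 0.0635). Proteins of the peptide exit tunnel and its rim, where the signal recognition particle meets the new chain, had lower EE means in 7 of 7 cases in both sets, with medians of -0.31 and -0.11 and 1 under the threshold over 10 libraries (Rpl17).

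Rpl18, which lies on the outer face of the large subunit, was the 1 member with a higher EE mean over all 10 libraries. Its normalized counts were 15748, 15112, 13511, 27875 and 13459 in SD and 16548, 13977, 17035, 18583 and 17415 in EE. With SD replicate 4 in the group the means were nearly equal (log2 0.016, exact p = 0.960), and without it EE was higher by 0.20 (SE 0.096, p = 0.0573, adjusted p = 0.492, exact permutation p = 0.0714). In that set 4 of 5 EE libraries lay above the highest SD library, with EE replicate 2 as the exception. Rpl36 and Rps28 also had higher EE means without SD replicate 4, at 0.083 (exact permutation p = 0.460) and 0.044 (exact p = 0.563).

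Rpl17 lines the narrow part of the exit tunnel, and its mRNA was the most variable of all members. Normalized counts were 13002, 6047, 7399, 20603 and 13600 in SD and 6105, 5994, 5888, 5748 and 12103 in EE. Of the 9 libraries without SD replicate 4, 3 held 12103 or more (SD replicates 1 and 5 and EE replicate 5) and 6 held 7399 or less, with no library between. The gap between these levels was 0.70 (log2), and the next widest gap between ranked libraries in any member was 0.23, in Rps3a. Both levels occurred in both housing groups. The housing difference was -0.68 (log2, SE 0.31, limma p = 0.0498, adjusted p = 0.674, exact permutation p = 0.0635) over 10 libraries and -0.46 (SE 0.28, p = 0.134, exact permutation p = 0.183) without SD replicate 4. Over those 9 libraries the SD of its log2 value was 0.54, against a median of 0.12 over members and 0.21 over all genes, and 59 of 61 members stayed under 0.2.

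**Figure D2:**
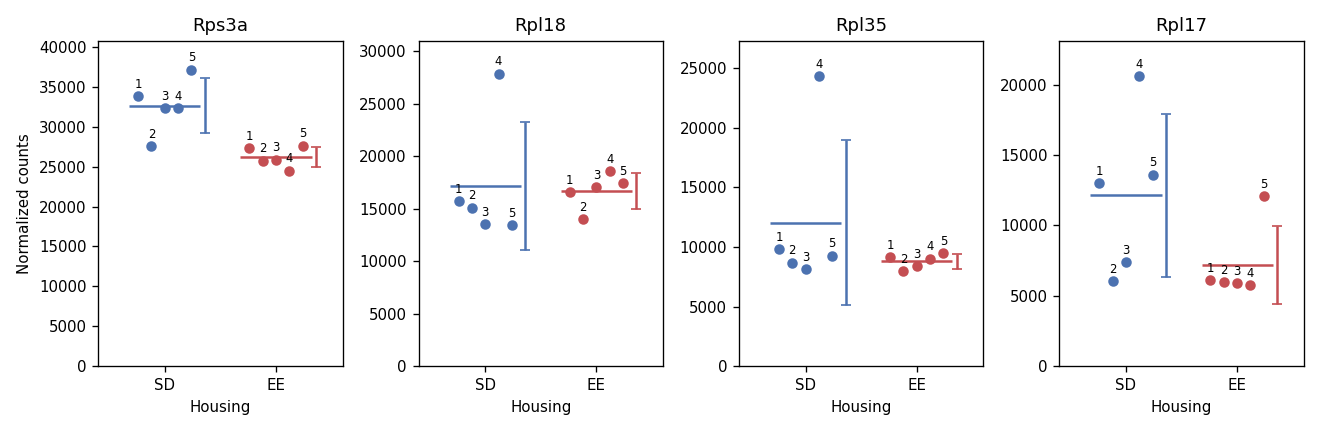
Normalized counts (vertical axis from 0) of Rps3a, Rpl18, Rpl35 and Rpl17 in the 5 SD and 5 EE libraries, numbered by replicate, with the group mean as a horizontal line and its SD as a bar. SD replicate 4 lies among the other SD libraries for Rps3a (32352) and far above them for Rpl18 (27875) and Rpl35 (24324), and Rpl17 falls into a high and a low set in both groups.

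At the other end of the range, Rpl41, which encodes a very short peptide at the joint between the subunits, varied least over the 10 libraries. It had 28108, 26381, 30683, 34289 and 28713 normalized counts in SD and 28254, 24365, 29782, 30141 and 28187 in EE. The ranges overlapped almost fully, and the difference was -0.072 (exact permutation p = 0.405) and -0.018 without SD replicate 4 (exact p = 0.794).

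The widest difference in these mRNAs was not between the housing groups but between SD replicate 4 and the other libraries. That library had the highest value of the 10 in 57 of 61 members, beside 20.7% of all genes. It exceeded the mean of the other 4 SD libraries by a median of 0.71 (log2), or 1.63-fold, where the median over all genes was 0. The excess was over 0.5 in 46 members, beside 13.1% of all genes, and over 1 in 11, beside 1.83%. Of these 11, 7 belonged to the large subunit and 4 to the small. The mean log2 value over the members was 14.56 in SD replicate 4, between 13.73 and 13.96 in the other SD libraries and between 13.65 and 13.87 in EE.

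**Figure D3:**
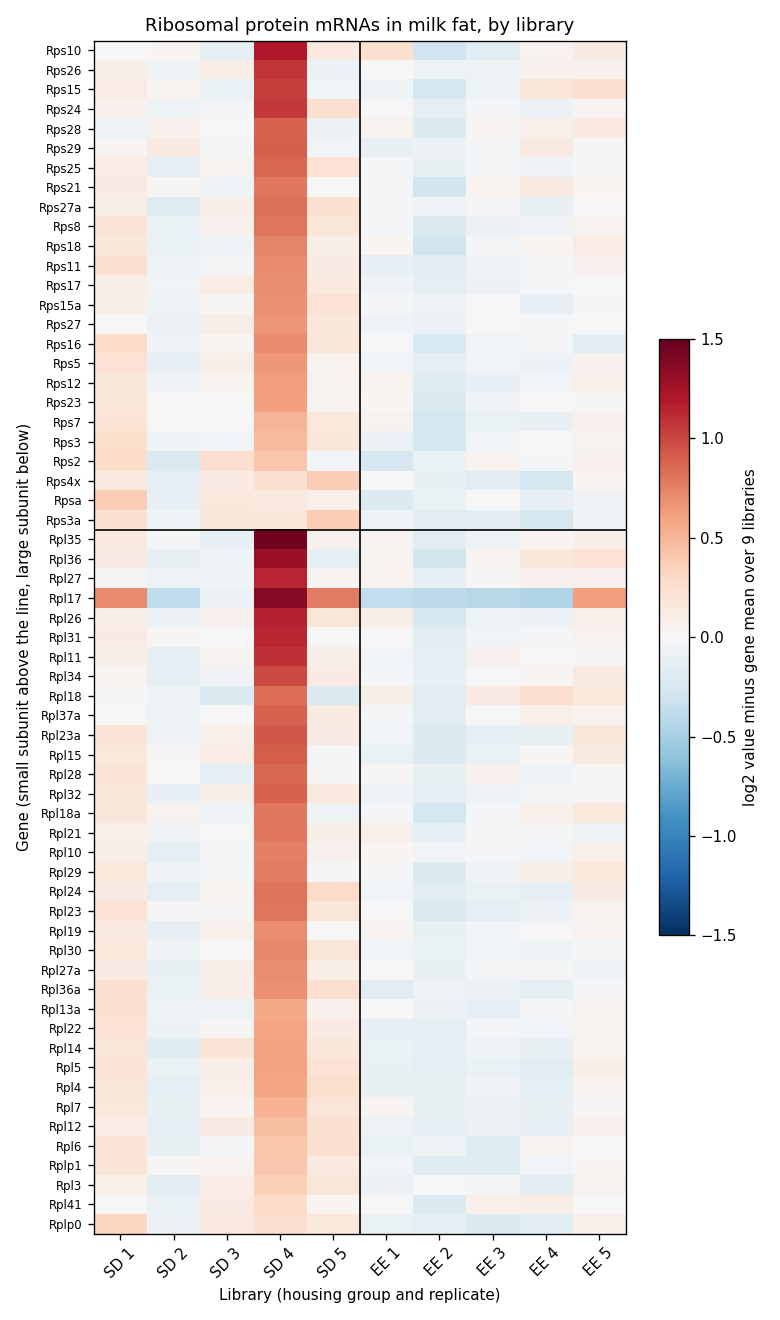
Heat map of the log2 value of each of the 61 genes (rows, small subunit above the line) in each of the 10 libraries (columns), relative to the gene's mean over 9 libraries without SD replicate 4. The column of SD replicate 4 is red in nearly all rows, with the palest cells in Rps3a, Rpsa, Rplp0 and Rps4x, and Rpl17 is the row with the strongest contrast among the other 9 libraries.

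The excess in SD replicate 4 was far from even over the members. At the top stood Rpl35, a protein of the tunnel rim, with 24324 normalized counts in that library against 9828, 8682, 8114 and 9260 in the other SD libraries and 9148, 7952, 8409, 9022 and 9487 in EE, an excess of 1.43 (log2). Once that library was set aside, the Rpl35 groups overlapped, and the housing difference went from -0.31 (exact permutation p = 0.373) to -0.026 (exact p = 0.738). Rpl36 followed, with 13894 against 6141, 5194, 5376 and 5079 in the other SD libraries and 5763, 4621, 5764, 6318 and 6523 in EE. Rps10, a protein of the small subunit head, led its subunit, with 16534 against 7174, 7326, 6476 and 7920 in SD and 8490, 5820, 6436, 7432 and 7817 in EE. In each of these 3 genes SD replicate 4 lay well above all 9 other libraries, which overlapped between the groups.

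Rps28 and Rps29, small proteins of the head, showed the same form at lower height. SD replicate 4 had 24791 normalized counts of Rps28, against 12610 to 14021 in the other SD libraries. For Rps29 it had 28075, against 14578 to 16593. Their housing differences went from -0.14 and -0.22 over 10 libraries to 0.044 and -0.047 without that library, with exact permutation p of 0.563 and 0.468.

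At the bottom stood Rps3a, with an excess of -0.0075, then Rpsa, Rplp0 and Rps4x, all at 0.121 or less, and the next member, Rpl41, was at 0.27. These 4 mRNAs were therefore at an ordinary level in a library where the median member was 1.63-fold higher than in the other SD libraries. Their housing differences over 9 libraries ran from -0.31 to -0.22, and those of the other 57 members from -0.46 to 0.20. The excess and the housing difference share the other SD libraries as reference, so their relation was not tested.

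**Figure D4:**
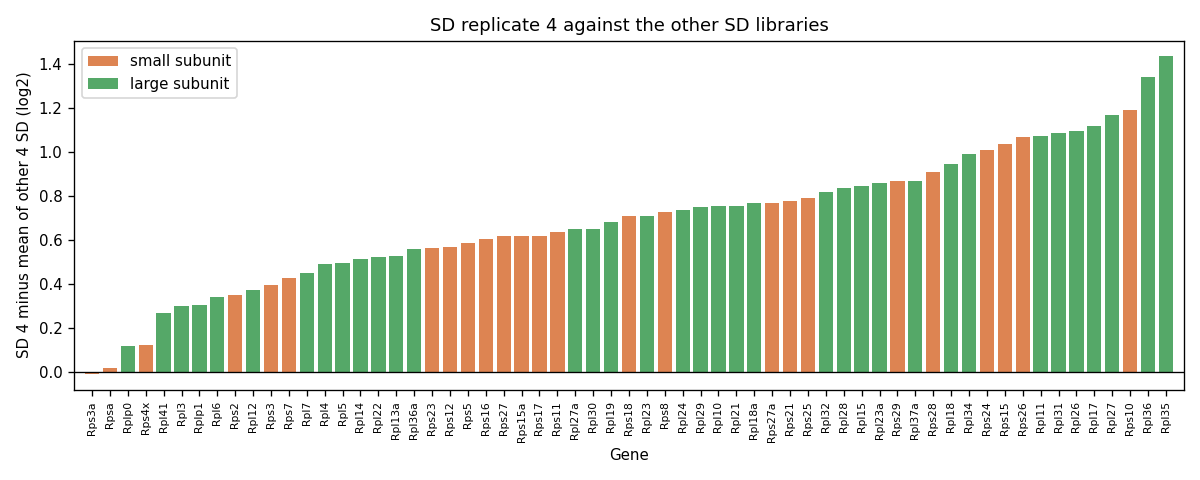
Value of SD replicate 4 minus the mean of the other 4 SD libraries (log2, vertical axis) for each of the 61 genes in rising order, colored by subunit. Bars run from -0.0075 (Rps3a) to 1.43 (Rpl35), and both subunits are spread over the whole order.

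Other families were raised in the same library, though not all. The median excess in SD replicate 4 was 0.76 (log2) over 70 respiratory chain subunit genes, 0.53 over 67 mitochondrial ribosomal protein genes and 0.41 over 39 proteasome subunit genes, and it was 0.081 over 63 translation factor genes. That library had the lowest estimated depth, 43284497 reads, against 45679799 to 70195989 in the other SD libraries. Its casein share, 60.4%, lay within that of the others. The summed normalized counts of the keratinocyte markers were 213 in it, against 32.6 to 78.7 in the other SD libraries and 69.2 to 114 in EE, with 3 of 6 markers in the table and Krt1 and Ivl at 0 in every library, so that Krt10 made up the whole sum. Of the basal and myoepithelial keratins, Krt14 had 122 normalized counts in SD replicate 4, against a mean of 12.1 in the other SD libraries and 17.7 in EE, and Krt5 had 68.1, against 9.07 and 19.9. SD replicate 4 was the highest library in 3 of the 6 myoepithelial markers, a list that includes both keratins. The sum of these 6, mostly Acta2, was 1791 in it, within the 1416 to 2254 of the other SD libraries. The summed macrophage markers were 1550 in SD replicate 4, within the 327 to 2006 of the other SD libraries. The part of depth or of these cells in the excess was not tested.

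Among themselves, the members mostly moved together. Over the 9 libraries without SD replicate 4, the 1830 pairs of members had a median Pearson correlation of 0.62, and 119 pairs were below 0. These libraries share the authors' normalization, and the values describe them without a test. Both housing groups are pooled in them, so a shift between the groups enters the correlations. Pairs of other genes were not correlated, so the median of 0.62 cannot be set against a background. Rpl18, Rps29 and Rps28 were the members least like the rest, with mean correlations of -0.044, 0.0045 and 0.071 with the others. All 3 had an excess in SD replicate 4 above the median of the members.

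As a share of all normalized counts, the 61 members made up 1.76% ± 0.338 (SD, n = 5) in SD libraries, 1.63% ± 0.200 (SD, n = 4) without SD replicate 4, and 1.99% ± 0.624 (SD, n = 5) in EE. The EE mean was thus the higher one, opposite to the single genes. The share was 1.61%, 1.37%, 1.67%, 2.28% and 1.85% in SD replicates 1 to 5 and 1.69%, 1.57%, 2.36%, 1.42% and 2.90% in EE replicates 1 to 5. The largest were in EE replicates 5 and 3, the libraries with the lowest casein shares. Casein mRNAs (5 genes) accounted for 59.3% ± 1.82 (SD, n = 5) in SD and 50.9% ± 8.39 (SD, n = 5) in EE, with 40.4% in EE replicate 5 and 44.1% in EE replicate 3. With caseins left out of the total, the ribosomal protein share was 4.32% ± 0.870 in SD, 3.96% ± 0.404 without SD replicate 4, and 3.98% ± 0.580 in EE (SD, n = 5, 4 and 5). Scaling every library to its total without caseins moved the median of all genes to 0.11 (log2) and that of the members to -0.10, and without SD replicate 4 to 0.11 and 0.010, with 29 of 61 members lower. The direction of the family thus depended on the scaling in the 9 libraries, and relative to the median of all genes it stayed below in both.

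The cytosolic and the mitochondrial ribosome can be compared within a library, free of its scaling. Mitochondrial ribosomal proteins, encoded in the nucleus for the ribosome that makes respiratory chain subunits, had lower EE means in 22 and higher in 45 of 67 genes over 10 libraries (median 0.075), and lower in 3 and higher in 64 without SD replicate 4 (median 0.16). Higher EE means were found in 48.0% of all genes over 10 libraries and 49.7% over 9. At an unadjusted p under 0.05, 5 and 20 of the mitochondrial genes were higher, respectively, and 0 lower. The shares of all genes under that rule were 3.35% and 5.15% higher, and 4.05% and 5.24% lower. The mean log2 value of the cytosolic members minus that of the mitochondrial family was 3.86, 3.62, 3.72, 3.94 and 3.89 in SD replicates 1 to 5 and 3.53, 3.47, 3.49, 3.46 and 3.59 in EE replicates 1 to 5. All EE libraries lay below all SD libraries, and SD replicate 4 was close to SD replicates 1 and 5. The means were 3.81 ± 0.133 (SD, n = 5) in SD, 3.77 ± 0.128 (SD, n = 4) without SD replicate 4 and 3.51 ± 0.054 (SD, n = 5) in EE, a difference of -0.30 and, without that library, -0.27. As a score over chosen members this difference was given no test. It holds the higher EE means of the mitochondrial family as well as the lower ones of the members (medians 0.16 and -0.10 over 9 libraries). Higher EE means over 9 libraries were also found in 64 of 70 respiratory chain, 34 of 39 proteasome and 37 of 63 translation factor genes. These stand beside the 49.7% of all genes.

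**Figure D5:**
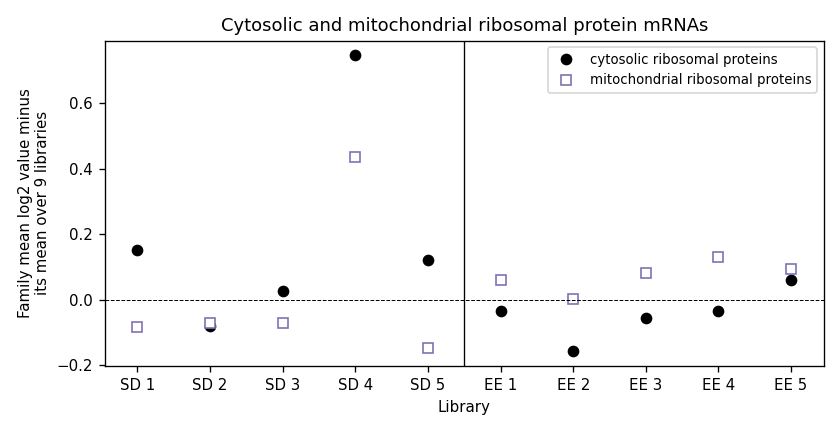
Mean log2 value of the 61 cytosolic (filled circles) and 67 mitochondrial (open squares) ribosomal protein genes in each library, relative to the family's own mean over 9 libraries without SD replicate 4. Both families are high in SD replicate 4, and in the 5 EE libraries the squares lie above the circles.

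Ribosomal proteins that the symbol rule leaves out were measured in 8 of 10 cases. All 8 had lower EE means over 10 libraries (median -0.18), beside 52.0% of all genes. Without SD replicate 4, 4 of 8 did (median -0.042), beside 50.3%. Rack1, a scaffold protein on the small subunit head, gave -0.16 (log2, limma adjusted p = 0.744) and -0.13, and Rpl22l1, the paralog of Rpl22, gave -0.28 (adjusted p = 0.744) and -0.091, first over 10 and then over 9 libraries. The 1 gene under the threshold over 10 libraries, beside 4.05% of all genes, was Rpl39l. It had a mean of only 5.27 normalized counts in SD and 0.438 in EE.

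Other mRNAs known to carry a TOP tract were measured in 19 of 20 cases, 3 of which are also in the list just described. A lower EE mean was found in 18 of 19 over 10 libraries (median -0.17), beside 52.0% of all genes. Without SD replicate 4 it was found in 13 of 19 (median -0.12), beside 50.3%. The same 3 were lower at an unadjusted p under 0.05 in both sets, beside 4.05% and 5.24% of all genes. In the other direction 0 were called, beside 3.35% and 5.15%. Eef1b2, an exchange factor for the elongation factor eEF1A, had means of 7966 normalized counts in SD and 6018 in EE (log2 -0.39, SE 0.10, limma adjusted p = 0.506, and -0.32, SE 0.087, without SD replicate 4). Pabpc1, the poly(A) binding protein, gave -0.41 (SE 0.14) and -0.51 (SE 0.12), and Eif4b, a cofactor of the helicase eIF4A, gave -0.27 (SE 0.094) and -0.32 (SE 0.085). SD replicate 4 had less Pabpc1 and Eif4b than the other SD libraries, by 0.49 and 0.24 (log2), where it had more of most members.

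Genes of mTORC1 and of TOP mRNA control were measured in 16 of 19 cases, with 8 lower and 8 higher in EE and a median of 0.006 over 10 libraries. At an unadjusted p under 0.05, 0 were called in either set. Under that rule 4.05% and 5.24% of all genes were lower and 3.35% and 5.15% higher, over 10 and 9 libraries. Rptor, which presents substrates to the kinase, gave the smallest p (log2 0.17, SE 0.10), followed by Mlst8, a subunit of both mTOR complexes (0.17, SE 0.11).

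Chaperones of single ribosomal proteins and late assembly factors went the other way. Of 13 measured of 14 listed, 10 had higher EE means over 10 libraries (median 0.095), beside 48.0% of all genes. Without SD replicate 4, 12 did (median 0.15), beside 49.7%. At an unadjusted p under 0.05, 1 was higher over 10 libraries and 2 over 9, beside 3.35% and 5.15% of all genes. Grwd1, which binds Rpl3 before assembly, was higher at an unadjusted p under 0.05 over 10 libraries (log2 0.28, SE 0.12) and gave 0.19 (SE 0.089) over 9. Tsr2, the chaperone of Rps26, and Eif6, which keeps the new large subunit from joining early, were under that threshold over the 9 libraries and not over 10 (0.19, SE 0.078, and 0.19, SE 0.081, over 9). Their values over 10 libraries were 0.13 (SE 0.095) and 0.098 (SE 0.11). Rrs1, which helps to place the 5S particle, gave 0.23 (SE 0.11) over 10 and 0.21 (SE 0.11) over 9 libraries.

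Genes mutated in the human disorder Diamond-Blackfan anemia, in which too few ribosomes hold back red cell formation, were measured in 9 of 11 cases. All 9 had lower EE means in both sets, with medians of -0.26 and -0.11, beside 52.0% and 50.3% of all genes. Under an unadjusted p of 0.05 there was 1 over 10 libraries (Rpl5) and 0 over 9, beside 4.05% and 5.24%.

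Markers of other cells were compared beside these results. All 8 macrophage markers had lower EE means over 10 libraries, 0 of them at an unadjusted p under 0.05, and their summed normalized counts ran from 129 to 1442 in EE. The sums that follow are given for the SD libraries other than replicate 4, then for replicate 4, then for EE. Myoepithelial markers summed to 1416 to 2254, 1791 and 2049 to 2753, most of it Acta2. Of these 6 markers, 1 was higher in EE at an unadjusted p under 0.05 and 1 lower, in both library sets. Acta2, smooth muscle actin, was higher by 0.55 (log2, SE 0.12, limma adjusted p = 0.506) and by 0.52 without SD replicate 4. Myh11, smooth muscle myosin, gave -0.62 (SE 0.20, limma adjusted p = 0.561) and -0.55, with means of 75.5 normalized counts in SD and 27.7 in EE. Neutrophil markers summed to 45.7 to 158, 161 and 48.6 to 201, with Elane and Mpo at 0 throughout, and 7 of 8 T and B cell markers to 80.9 to 368, 376 and 64.6 to 408. Adipocyte markers summed to 162 to 197, 107 and 121 to 215, with Plin1 at 0, endothelial markers to 54.2 to 150, 53.8 and 43.4 to 131, and 4 of 5 erythroid markers to 286 to 531, 383 and 245 to 1629. The part of these cells in the differences between SD and EE was not tested.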

How the data were processed

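RNA-seq of the P10 milk fat layer was analysed from 5 SD and 5 EE libraries, grouped by sample title. The authors aligned single-end reads of 100 bases from stranded mRNA libraries to rat build rn6 and used DESeq2. The counter, annotation and filters are not given in the sources used here, and reads shared with processed pseudogenes, which are many for ribosomal proteins, may have been split or lost. Each library's column, as deposited, holds normalized log2 expression by the authors (named rlog). The values follow a variance-stabilizing form, which was inverted to normalized counts with a dispersion constant fitted to the authors' baseMean, a mean normalized signal. The authors' fold changes and p-values, in a table of 1354 genes, were not used.

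The housing comparison used limma 3.58.1 (R 4.3.3) with lmFit and a trended eBayes, two-sided, over all 12992 genes that varied (12955 without SD replicate 4), with Benjamini-Hochberg adjustment. A call required an adjusted or, where named, an unadjusted p under 0.05, and for some counts also a fold change over 1.3. Single genes were also given exact permutation tests over 252 arrangements (126 for 4 against 5). Depth was estimated from the step of 1 read in low genes, which gave whole reads (within 0.1) for 89.2% to 98.2% of values below 10 reads. Percentages and p-values of named genes do not allow for their choice. The limma fit and the inversion were tested on simulated data.

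Members and lists were chosen with earlier results of these data known. The rule for named genes took Rps3a, the 5 members with the smallest p in each direction, the most and least variable, Rplp0, Rplp1, Rplp2, Rpl5 and Rpl11, and up to 4 genes of each other list. Rplp2 was not analysed here, and the part of the rule on counts per kb of coding sequence could not be applied, because no coding lengths were at hand. Levels were therefore not compared between genes. Rpsa, Rps4x, Rpl35, Rpl36, Rps28, Rps29, Rps16, Rpl23, Rps10, Acta2, Myh11, Krt14, Krt5 and genes named only in a count were chosen after their values were seen. Alternatives were a filter on low counts, other scalings, moderation, library weights, the casein share as covariate, a replicate block and leaving out each library.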

Additional observations from a re-analysis of the deposited data

Results flagged for a closer look

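Single libraries far from the other 4 of their group were looked for in 78 groups of values (2 housing groups for each named gene and for 3 library measures), as a gap to the nearest library over 0.71 of the group's range. Chance gives about 5% of groups such a gap, but the count cannot be set against that share, since the genes are correlated and several (Rpl35, Rpl36, Rps28, Rps29, Rps10, Rpl23, Acta2, Myh11, Krt14 and Krt5) were named after their values were seen. The gap was found in 15 groups, of which 11 were at SD replicate 4. In that library the share of the range was 0.785 for Rpl18, 0.798 for Rpl11, 0.826 for Rpl35, 0.812 for Rpl36, 0.843 for Rps28, 0.803 for Rps29, 0.711 for Rpl23, 0.786 for Rps10, 0.752 for Rpl22l1, 0.809 for Krt14 and 0.720 for the mean log2 value of the 61 members, always as the highest of the SD libraries. EE replicate 5 was the highest EE library for Rpl17 (0.919) and Rpl5 (0.714). SD replicate 1 was the highest SD library for Acta2 (0.788). Rpl39l was above 0 in a single EE library, replicate 1, which gave 1.0, at a level of few reads.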

How the results depend on the processing

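The counts of members rested on the library set and the scaling. Members lower at an unadjusted p under 0.05 numbered 8 over all 10 libraries (4.05% of all genes were lower under the same rule), 1 with quantile normalization (3.02%), 3 with median centring (3.25%), 0 with totals without caseins (1.70%), 4 with library weights (4.80%) and 11 with the replicate block (5.37%). Leaving out 1 library gave 2 to 31, with 31 without SD replicate 2, 3 without SD replicate 4, and 2 without SD replicate 1, EE replicate 2 or EE replicate 3. Members higher stayed at 0 in all of these. Beside them, genes of the whole table that were higher ran from 292 of 12906 (without EE replicate 3) to 997 of 12992 (totals without caseins). Members lower whatever the p ranged from 55 to 61 over the left-out libraries, the median difference from -0.29 to -0.10 and the difference of the ribosomal protein share from 0.0045 to 0.375 percentage points. With caseins left out of the total that share difference was -0.34. Alternatives combined with leaving out SD replicate 4 were chosen after seeing the data. With quantile normalization they gave 0 lower (4.18% of all genes) and 1 higher, beside 917 higher of 12989 genes. Totals without caseins gave 0 (2.43%) and 1, beside 1096 of 12955. There 29 members were lower whatever the p, with a median of 0.010. Median centring gave 2 (4.47%) and 1, beside 744 of 12992. Genes of the whole table past the adjusted threshold numbered 0 with all 10 libraries, 1 with quantile normalization, 0 to 1 over the left-out libraries, and, without SD replicate 4, 1 with quantile normalization, 3 with totals without caseins, 1 with median centring and 1 with the casein covariate. Of genes at an unadjusted p under 0.05 in the whole table, 45.3% were higher in EE, against 63.4% with quantile normalization, 56.6% with median centring and 81.9% with totals without caseins. The causes of these shifts were not tested.

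For 18 named members 326 of 432 alternative values kept their side of an unadjusted p of 0.05. Another 95 went from under it to above it, 11 went the other way, and 0 changed direction in a member called over all 10 libraries. For 18 named genes of other lists the numbers were 379 of 431, 31, 21 and 0. Values that kept their side could still change direction where the gene was not called, as in Rpl36 (log2 -0.28 to 0.20 over the alternatives). The adjusted p of Rps3a ranged from 0.333 to 0.946. Replicate numbers did not pair the libraries, since the correlation of same-numbered libraries ran from -0.094 to 0.281 and 2 of 10 libraries were most like their own number, so the count of 11 under the block is given only here. Rpl39l and several markers rest on few reads, which limits their values.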
